A study of Mus musculus with 3 samples.

Results

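The genes described here are 40 genes of mitosis, the spindle and chromosome condensation, listed by name, with no value in the rule, although earlier results of these data were known when the list was made. Array features were taken where the platform annotation gives exactly 1 gene symbol equal to a listed name. That gave 39 features for 36 genes, and all 36 had a value on every array. Ccnb1, Ncaph, Espl1 and Smc4 were not analysed here, because no feature met the rule for them. The 36 genes stand among 14433 named genes with a value on all 3 arrays.

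The samples were fetal kidney at 13.5 days post coitum (dpc) and metanephroi, the rudiments of the permanent kidney, at 11.5 dpc. Both came from CD1 mouse embryos of both sexes, microdissected and pooled, and no genetic change or treatment is named for either age. Amplified RNA of both ages was put on each of 3 Mouse Compugen 22K oligonucleotide arrays, in the dye order red/green on arrays 1 and 2 and green/red on array 3. Each value is a log2 ratio of the ages within an array, likely 11.5 over 13.5 dpc, so the column runs from the younger age over the older one. A negative value is read as higher at 13.5 dpc and a positive value as higher at 11.5 dpc, and every direction turns if that reading is wrong. The sign of array 3, whose dyes were swapped, is not stated in the sources used here either, and it was used as deposited. So read, the erythroid genes Hbb-bh1 (3.13, 5.26 and 3.81 on arrays 1, 2 and 3) and Klf1 (1.99, 2.42 and 2.12) shared 1 sign. Over the other named genes, the Pearson correlation of array 3 was 0.14 with array 1 and -0.11 with array 2. With array 3 turned, the mean of 17 of the 36 genes described here changed sign. The median of the 36 genes then became 0.030, against -0.083 as deposited. Nothing in the sources used here says that the arrays carried separate tissue pools. The p-values therefore rest on the differences among the arrays alone, and those differences may be technical.

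Cells that divide switch on a shared set of genes in the G2 and M phases of the cell cycle. Cyclin-dependent kinase 1 bound to A- and B-type cyclins starts mitosis, condensin and topoisomerase compact the chromosomes, and kinesin motors build the spindle. Kinetochores tie the chromosomes to it, the spindle checkpoint holds back the anaphase-promoting complex (APC/C) until all are attached, and the central spindle then guides the division of the cell. In the fetal kidney, progenitors of the cap mesenchyme, cells of the ureteric bud tips and stromal progenitors divide while nephrons begin to form. In these bulk samples, fewer dividing cells and less RNA per dividing cell cannot be told apart.

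The promoters of these genes share short control elements that the choice by name did not use. The CHR element (TTTGAA) lies near the start site of many genes expressed in G2 and M phase and is bound by the MuvB core, which joins repressor proteins in resting cells and the activators B-Myb and FoxM1 in dividing ones. The CCAAT box is bound by the activator NF-Y. RefSeq promoter windows of build GRCm38.p6, with 250 bases before and 50 after the start site, were found for 31 of the 36 genes by symbol. Ccna2, Kif20a, Tpx2, Incenp and Aurkb had no entry. Both strands were searched, and a gene with several windows counted once.

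TTTGAA occurred in 24 of the 31 genes (77.4%), against 15.7% of 11223 other named genes of the arrays and 20.2% of all 27025 genes in the promoter table. CCAAT occurred in 24 genes as well (77.4%, against 42.1% and 41.1%), and at least 2 copies of it in 16 genes (51.6%, against 15.1% and 13.3%). Both motifs together occurred in 21 genes (67.7%), against 6.3% of the other named genes and 7.97% of all genes. The palindromic variant TTCGAA occurred in 3 genes (9.68%, against 2.18% and 1.8%). A match is a description of these letters and does not show that a factor binds there.

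**Figure D1:**
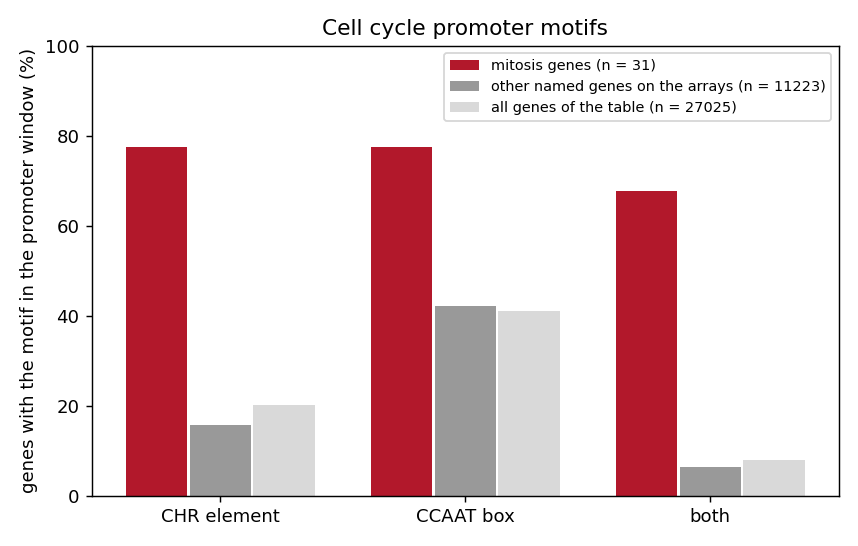
Share of genes, in percent, with the CHR element, the CCAAT box or both in the 300-base promoter window on either strand, for the mitosis genes, the other named genes of the arrays and all genes of the RefSeq promoter table. The mitosis genes reach 77.4% for each motif and 67.7% for both, against 15.7%, 42.1% and 6.3% of the other named genes.

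Windows are printed for 4 of the genes whose values are described most fully below, Kif2c, Cdca8, Kif11 and Racgap1, and for Ccnb2, which holds 3 CCAAT boxes and 2 CHR elements. Each runs 5′ to 3′ along the strand of the gene, base 251 is the annotated start site, and capitals mark the CHR element, the CCAAT box and the TTCGAA variant on either strand, so that a reversed CHR element reads TTCAAA and a reversed CCAAT box reads ATTGG. In Cdca8 the CHR element and a reversed CCAAT box overlap, the only such case among the windows of these genes. In Ccnb2 the CCAAT boxes begin at bases 164, 197 and 230 and the nearer CHR element at base 255. In Kif2c the window holds a single reversed CHR element, far upstream at base 148, and no CCAAT.
Kif2c (GRCm38.p6, chr4:117178723-117179022, - strand): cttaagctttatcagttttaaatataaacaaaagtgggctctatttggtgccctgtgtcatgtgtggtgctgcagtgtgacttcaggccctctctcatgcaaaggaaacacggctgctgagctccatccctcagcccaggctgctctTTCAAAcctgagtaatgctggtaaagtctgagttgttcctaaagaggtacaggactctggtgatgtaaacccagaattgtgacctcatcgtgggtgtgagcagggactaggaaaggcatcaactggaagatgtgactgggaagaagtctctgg
Cdca8 (GRCm38.p6, chr4:124936868-124937167, - strand): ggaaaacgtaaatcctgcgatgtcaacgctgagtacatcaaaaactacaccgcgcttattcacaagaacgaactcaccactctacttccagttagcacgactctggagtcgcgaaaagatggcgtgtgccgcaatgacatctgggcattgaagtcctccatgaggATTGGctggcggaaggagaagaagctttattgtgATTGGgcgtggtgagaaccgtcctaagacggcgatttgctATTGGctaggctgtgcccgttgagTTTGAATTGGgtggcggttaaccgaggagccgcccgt
Kif11 (GRCm38.p6, chr19:37376132-37376431, + strand): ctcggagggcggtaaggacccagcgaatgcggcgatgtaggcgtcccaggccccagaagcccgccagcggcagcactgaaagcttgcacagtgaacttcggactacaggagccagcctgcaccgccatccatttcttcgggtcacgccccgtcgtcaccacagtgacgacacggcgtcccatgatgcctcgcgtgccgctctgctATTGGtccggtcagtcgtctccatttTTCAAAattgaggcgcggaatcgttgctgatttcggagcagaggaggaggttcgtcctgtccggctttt
Racgap1 (GRCm38.p6, chr15:99651607-99651906, - strand): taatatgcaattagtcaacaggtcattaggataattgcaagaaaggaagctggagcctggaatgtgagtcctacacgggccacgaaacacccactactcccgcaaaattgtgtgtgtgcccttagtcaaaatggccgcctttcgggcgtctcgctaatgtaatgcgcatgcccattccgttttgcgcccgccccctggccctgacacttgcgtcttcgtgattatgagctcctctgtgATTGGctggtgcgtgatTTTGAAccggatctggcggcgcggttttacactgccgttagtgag
Ccnb2 (GRCm38.p6, chr9:70421505-70421804, - strand): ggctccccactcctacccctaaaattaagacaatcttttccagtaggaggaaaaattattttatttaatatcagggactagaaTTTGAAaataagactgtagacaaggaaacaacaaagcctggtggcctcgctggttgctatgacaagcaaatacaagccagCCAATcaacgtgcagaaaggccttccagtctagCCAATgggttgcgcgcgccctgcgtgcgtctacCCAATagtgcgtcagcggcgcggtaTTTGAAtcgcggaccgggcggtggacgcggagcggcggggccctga

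A list of 134 other genes of mitosis was also read, of which 105 were measured. In that list, the 3 lowest mean log2 ratios with 1 sign on all arrays belonged to Foxm1, Mybl2 and E2f4. These genes encode FoxM1, B-Myb and the E2F protein of the repressor complex. Their negative sign follows from that choice and is no result about regulators as a group. The highest means of the list are given further below. Whether these regulators of mitotic transcription act on the promoters above in these samples was not tested. Mybl2 had -0.96, -0.97 and -0.60 on arrays 1, 2 and 3, a mean of -0.84 ± 0.21 (SD, n = 3 arrays; limma adjusted p = 0.415). E2f4 had -0.60, -0.55 and -1.30, and Foxm1 had -0.066, -2.51 and -1.27. The values of Mybl2 and E2f4 were thus negative and of some size on every array, while those of Foxm1 ran from near 0 to a large one. Of further regulators, named after their values were seen, the repressor gene Rbl2 had -0.55 ± 0.17, the E2F dimer partner gene Tfdp1 -0.46 ± 0.30, and the MuvB genes Lin9 and Lin37 -0.19 ± 0.19 and -0.26 ± 0.49. Rbl1 had -0.11 ± 0.25. None passed the adjusted threshold of limma.

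Across the mitosis genes themselves, the differences between 13.5 and 11.5 dpc were small and went both ways. The median of their mean log2 ratios was -0.083, against -0.011 for the other 14397 named genes. The 25th and 75th percentiles of the means were -0.29 and 0.078, against -0.23 and 0.21 for the other named genes. By mean, 24 genes were negative and 12 positive. Of the 36 genes, 4 (11.1%) had a mean beyond 0.5 in size, against 18.6% of the other named genes. Their spread over arrays was a median SD of 0.22, against 0.32.

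No gene passed limma with Benjamini-Hochberg adjustment over all 19015 rows (0 of 36, against 0.0% of all rows), and the smallest adjusted p among them was 0.415. At an unadjusted limma p under 0.05 there were 2 genes in the positive direction, Kif2c and Cdca8 (4.17% of all rows), and 3 in the negative direction, Kif11, Incenp and Racgap1 (5.07% of all rows). Values were positive on all 3 arrays for 4 of 36 genes, against 16.8% of all rows, and negative on all 3 for 9, against 18.5%. These counts lie near those of all rows and are no result about the genes as a group. The 95% interval of limma lay within 1 log2 unit, or 2-fold, of 0 for 27 of the 36 genes, against 64.1% of all rows. Within the spread among these arrays, the intervals of those 27 genes thus end short of a 2-fold difference, and those of the other 9 do not. The intervals are not adjusted for the number of genes. They cannot exclude a 2-fold difference between embryos of these ages, because the differences among the arrays may be technical.

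**Figure D2:**
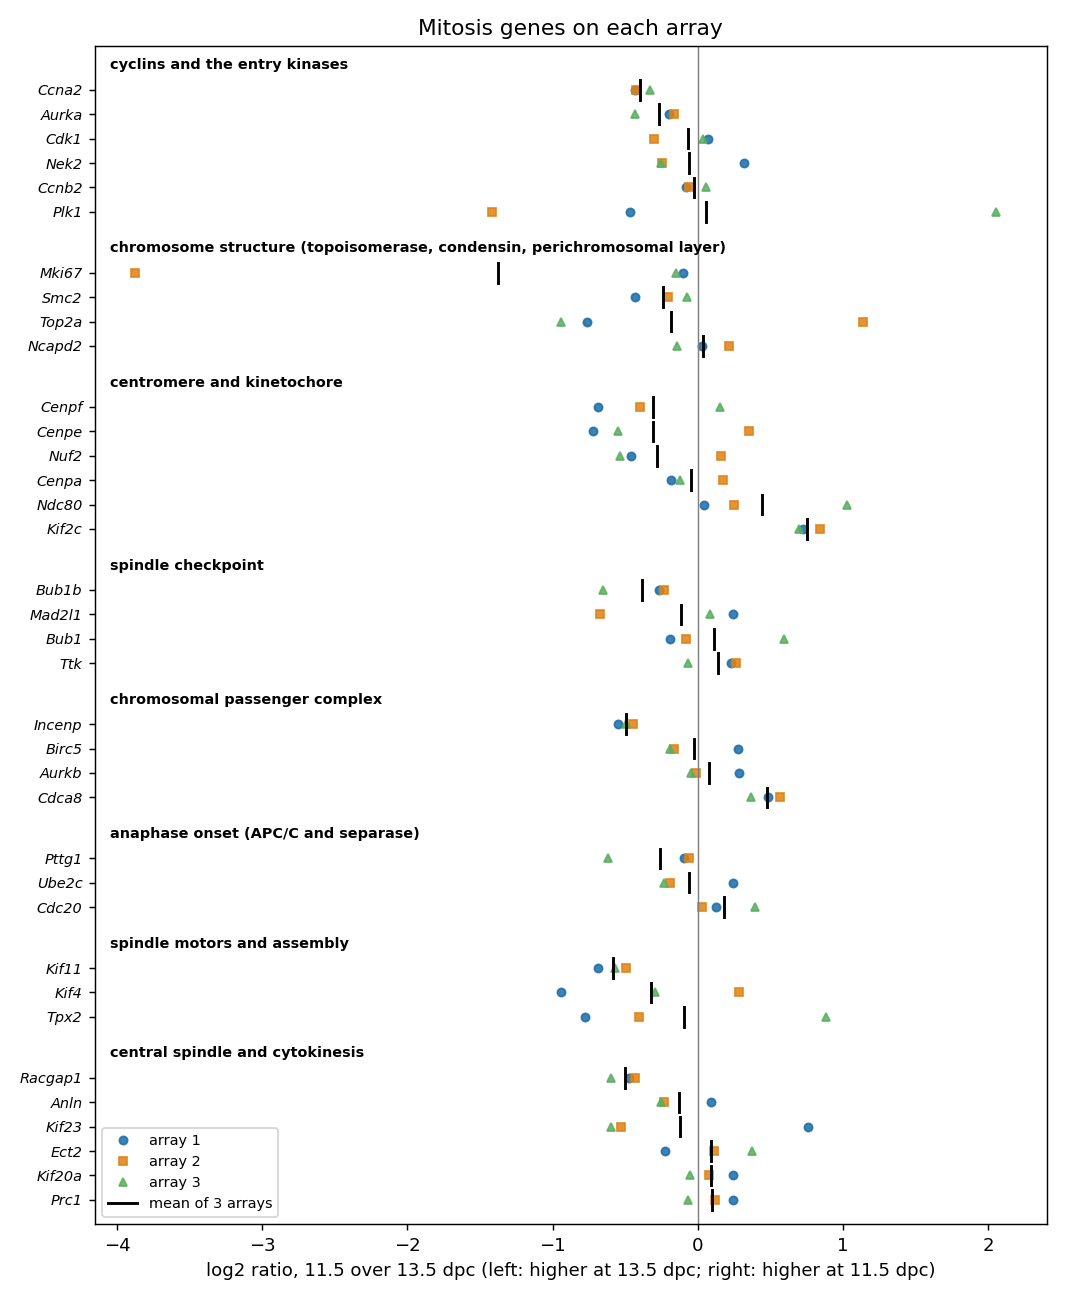
Log2 ratio, 11.5 over 13.5 dpc, of each mitosis gene on arrays 1, 2 and 3 (points) with the mean (black bar), grouped by role; genes to the left are higher at 13.5 dpc and genes to the right higher at 11.5 dpc. All but 4 of the means lie within 0.5 of 0, while Mki67, Plk1 and Top2a have arrays more than 2 log2 units apart.

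Array by array, the median of the mitosis genes was -0.099, -0.12 and -0.13 on arrays 1, 2 and 3, against 0.012, 0.051 and -0.080 for the other named genes. They lay below the median of the other named genes in 20, 23 and 19 of 36 cases. By dye order, their median was -0.075 over the red/green arrays and -0.13 on the green/red array, against 0.019 and -0.080. The median of the mitosis genes was thus the lower one on each array. The gap between the medians of the means was -0.072 over all arrays, -0.096 without array 1, 0.037 without array 2 and -0.095 without array 3. Its sign turned without array 2, and with the sign of array 3 turned the gap was -0.0043. Across the 36 genes, which share the arrays and their normalisation, the Pearson correlation was 0.066 between arrays 1 and 2, 0.12 between 1 and 3 and -0.12 between 2 and 3, against 0.31, 0.14 and -0.11 over the other named genes. Without Mki67 and Plk1, which varied most over the arrays, the same correlations were 0.065, 0.27 and 0.11 over 34 genes.

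**Figure D3:**
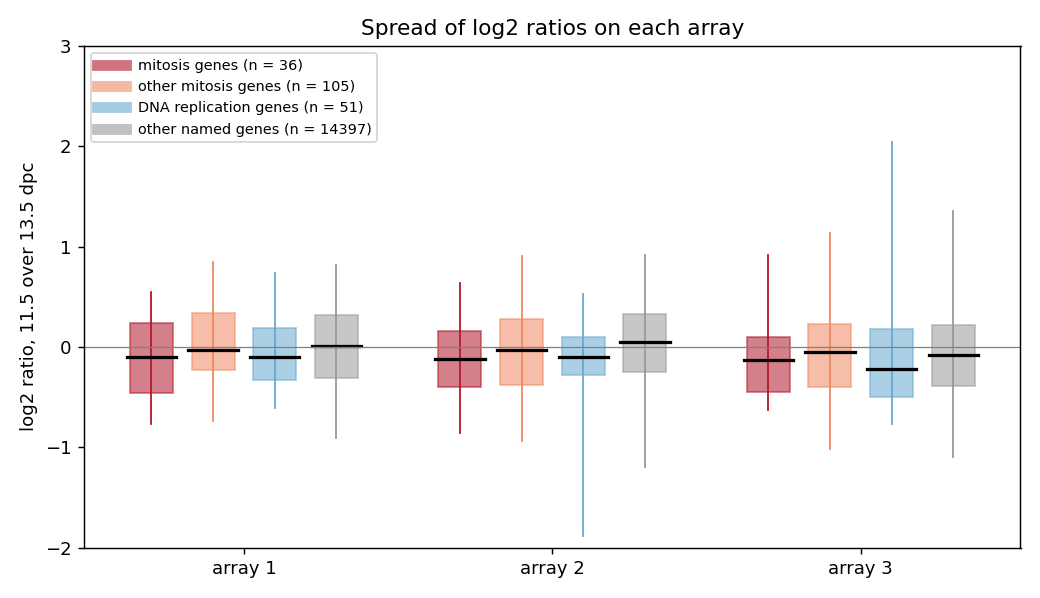
Log2 ratios, 11.5 over 13.5 dpc, on each array for the 36 mitosis genes, 105 other mitosis genes, 51 DNA replication genes and 14397 other named genes; boxes span the 25th to 75th percentiles, black lines are medians and thin lines run from the 5th to the 95th percentile. The medians of the mitosis genes, -0.099, -0.12 and -0.13, sit inside the boxes of the other named genes on every array.

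Among the cyclins and kinases that start mitosis, Ccna2, the A-type cyclin of S and G2 phase, had log2 ratios of -0.43, -0.43 and -0.33 on arrays 1, 2 and 3. All were negative and close together, with a mean of -0.40 ± 0.060 (1.32-fold higher at 13.5 dpc; limma adjusted p = 0.539). Aurka, the Aurora kinase of the spindle poles, was also negative on every array as deposited, with -0.20, -0.16 and -0.43, but its mean was 0.023 with array 3 turned. The genes at the core of the switch stayed near 0: Ccnb2, a B-type cyclin, had -0.082, -0.060 and 0.055, and Cdk1, the kinase it activates, had 0.069, -0.30 and 0.033. The limma 95% interval of Cdk1 was -0.52 to 0.39 and that of Ccnb2 was -0.43 to 0.37. Nek2, a centrosome kinase, had 0.31, -0.25 and -0.25, so its sign differed between arrays.

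Plk1, the polo kinase of mitotic entry, was measured by 2 features that disagreed. The feature annotated to a RefSeq transcript had -0.11, -0.19 and -0.71, while the one annotated to a cDNA record had -0.83, -2.64 and 4.82. The first was negative on every array, while the second ran from -2.64 on array 2 to 4.82 on array 3. Their average, 0.058 ± 1.79, therefore describes neither feature.

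Of the 4 genes of chromosome structure, Mki67 and Top2a varied widely over arrays, while Smc2 and Ncapd2 had SDs of 0.18 each, below the median SD of the 36 genes. Mki67, which coats mitotic chromosomes and encodes the proliferation marker Ki-67, had -0.10, -3.87 and -0.15. Array 2 alone made its mean of -1.38 ± 2.16, and without array 2 the mean was -0.13. Top2a, the topoisomerase that untangles sister chromatids, had -0.76, 1.14 and -0.94, with array 2 on the opposite side of 0 from the others. Of the condensin genes, Smc2 had -0.44, -0.21 and -0.073, all negative, and its 2 features had means of -0.32 and -0.16. Ncapd2, a regulatory condensin subunit, had 0.027, 0.22 and -0.14. The mean of Smc2 was -0.24 ± 0.18 and that of Ncapd2 0.034 ± 0.18, and the smallest limma adjusted p among the 4 genes of chromosome structure was 0.648.

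At the centromere and kinetochore, Kif2c, a kinesin that takes microtubules apart to correct wrong attachments, had 0.73, 0.84 and 0.70 on arrays 1, 2 and 3. All arrays were positive and within a narrow range, with a mean of 0.75 ± 0.075 (1.69-fold higher at 11.5 dpc). Its limma 95% interval was 0.35 to 1.16 and its adjusted p 0.415. Kif2c lay at the 95.7th percentile of named genes by mean. Ndc80, which grips the microtubule, was positive on all arrays as deposited but unevenly so, with 0.040, 0.25 and 1.03, and its mean of 0.44 became -0.24 with array 3 turned. Nuf2, its partner in the same complex, had -0.46, 0.16 and -0.54. The centromere motor gene Cenpe had -0.72, 0.35 and -0.55 and the kinetochore gene Cenpf -0.69, -0.40 and 0.15, each with 1 array of the other sign. Cenpa, the histone variant of the centromere, had -0.19, 0.17 and -0.13, a mean of -0.047 ± 0.19.

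Of the spindle checkpoint genes, Bub1b was negative on every array, with -0.27, -0.23 and -0.65. Its mean was -0.38 ± 0.23 (limma adjusted p = 0.571) and became 0.050 with array 3 turned. Bub1, a kinase that recruits it to kinetochores, had -0.19, -0.080 and 0.59, and Mad2l1, which blocks the APC/C activator, had 0.24, -0.68 and 0.084. Ttk, the kinase at the top of the checkpoint, had 0.23, 0.27 and -0.069. Signs thus differed between arrays for Bub1, Mad2l1 and Ttk.

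The chromosomal passenger complex joins the Aurora B kinase to the scaffold Incenp, to survivin (Birc5) and to borealin (Cdca8). Of its genes, Cdca8 and Incenp gave values of opposite sign. Cdca8 had 0.48, 0.57 and 0.37, a mean of 0.47 ± 0.10 (1.39-fold higher at 11.5 dpc; limma 95% interval 0.062 to 0.88, adjusted p = 0.534). Incenp had -0.55, -0.44 and -0.50, a mean of -0.50 ± 0.054 (1.41-fold higher at 13.5 dpc; limma 95% interval -0.90 to -0.098, adjusted p = 0.516). Each gene kept 1 sign on every array. Their library numbers, 19343 for Cdca8 and 4603 for Incenp, lie far apart. After subtraction of a running median by library position, the means were 0.39 for Cdca8 and -0.37 for Incenp. Aurkb had 0.28, -0.012 and -0.048 and Birc5 had 0.28, -0.16 and -0.19, so both lay between these partners on average.

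The difference between Cdca8 and Incenp was 1.04, 1.01 and 0.86 on the 3 arrays, a mean of 0.97 ± 0.093. It is a difference of ratios, not of levels, and it was among 15 pairs of partners in a complex or pathway step chosen after the values were seen. In 9 of the 15 pairs the difference had 1 sign on all arrays, against 33.8% of all 630 pairs of the measured mitosis genes. The pairs are not independent, since 6 of the 9 come from the same 4 passenger complex genes, whose 6 pairs all had 1 sign. The count is thus no result about partners as a group. Ccna2 minus Cdk1 gave -0.33 ± 0.19, with 1 sign, and Ndc80 minus Nuf2 gave 0.72 ± 0.76, also with 1 sign but an SD larger than the mean. No test was run on these pairs.

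Among the genes of anaphase onset, Cdc20, the activator of the APC/C, was positive on every array with 0.13, 0.029 and 0.39. Pttg1, or securin, which holds separase inactive, was negative on every array with -0.097, -0.059 and -0.62. Ube2c, the ubiquitin-conjugating enzyme of the APC/C, had 0.24, -0.19 and -0.24. The means were 0.18 ± 0.19, -0.26 ± 0.31 and -0.063 ± 0.27, and none of these genes passed limma (smallest adjusted p = 0.675). With array 3 turned, all 3 means changed sign, to -0.078 for Cdc20, 0.16 for Pttg1 and 0.095 for Ube2c.

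Of the spindle motors, Kif11, the kinesin that pushes the spindle poles apart, had -0.69, -0.50 and -0.57. All arrays were negative, with a mean of -0.58 ± 0.098 (1.5-fold higher at 13.5 dpc; limma 95% interval -0.99 to -0.18, adjusted p = 0.50). Kif4, a chromosome-bound kinesin, had -0.94, 0.28 and -0.30. Tpx2, which starts microtubule growth at chromosomes, had -0.78, -0.40 and 0.88. The last 2 genes spread over more than 1 log2 unit between arrays.

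In the central spindle, Racgap1, a subunit of the centralspindlin complex, had -0.48, -0.44 and -0.60. Its mean was -0.50 ± 0.084 (1.42-fold higher at 13.5 dpc; limma 95% interval -0.91 to -0.098, adjusted p = 0.516). Its kinesin partner Kif23 had 0.75, -0.53 and -0.60, with array 1 opposite to the others. The furrow gene Anln had 0.092, -0.24 and -0.26 as the average of 2 features with means of 0.0022 and -0.27. Ect2, which centralspindlin recruits to the midzone, had -0.23, 0.11 and 0.37. Kif20a, a motor of the midzone, had 0.24, 0.076 and -0.053, and the microtubule bundler Prc1 had 0.24, 0.12 and -0.071. The means of Anln, Ect2, Kif20a and Prc1 all lay between -0.13 and 0.096.

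**Figure D4:**
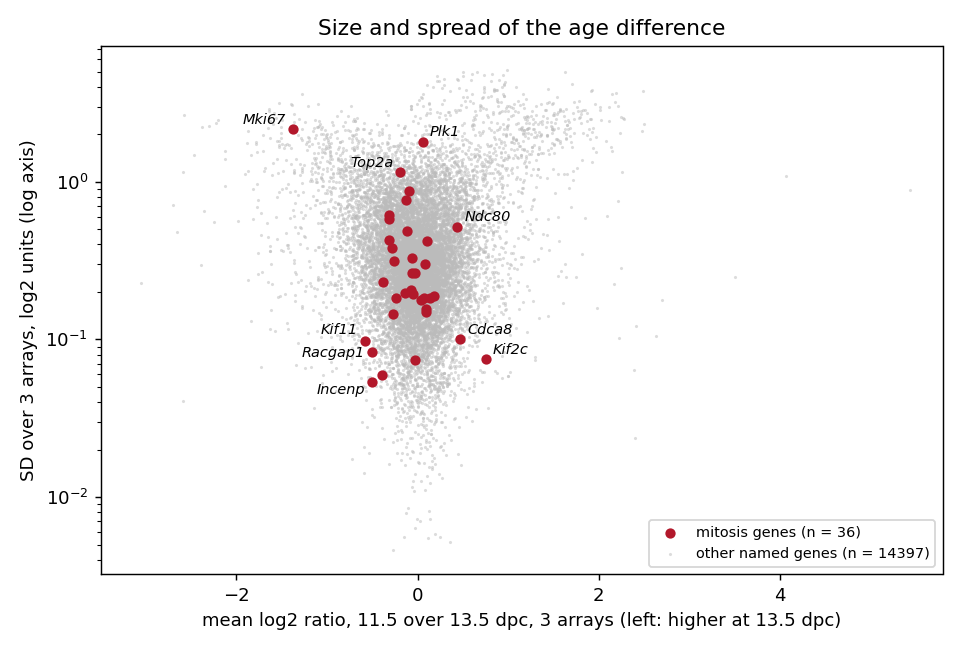
Mean log2 ratio over 3 arrays, 11.5 over 13.5 dpc, against the SD over the arrays on a log axis, for the 36 mitosis genes and 14397 other named genes. Kif2c and Cdca8 on the right and Kif11, Racgap1 and Incenp on the left combine a mean beyond 0.4 in size with an SD of at most 0.10, while Mki67 and Plk1 have SDs of 2.16 and 1.79.

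The 105 other measured mitosis genes gave a median of -0.022. Of them, 29 (27.6%) were negative on all 3 arrays and 22 (21.0%) positive on all 3, against 18.5% and 16.8% of all rows. At an unadjusted limma p under 0.05 there were 8 negative and 7 positive, against 5.07% and 4.17% of all rows. None passed the adjusted threshold. The highest means with 1 sign belonged to Spdl1, a dynein adaptor of kinetochores, at 1.16 ± 1.00, to the kinetochore gene Cenph at 0.96 ± 0.79, and to Mad2l2, a relative of the checkpoint gene Mad2l1, at 0.82 ± 0.27. The 51 measured DNA replication genes had a median of -0.098. Of them, 19 (37.3%) were negative and 7 (13.7%) positive on all arrays, against 18.5% and 16.8% of all rows. No set test was run on these shares. At an unadjusted limma p under 0.05 there were 2 negative and 4 positive of the 51, against 5.07% and 4.17% of all rows. The counts of 2 and 4 are too small to give a direction, and 0 passed the adjusted threshold. Their lowest were the helicase genes Mcm4 (-0.88 ± 1.22) and Mcm5 (-0.60 ± 0.33) and the polymerase gene Pold1 (-0.54 ± 0.15). Their highest were the helicase gene Mcm6 (1.00 ± 1.11), the clamp loader gene Rfc3 (0.66 ± 0.090) and Rnaseh2a (0.51 ± 0.27). Mcm4 had -0.32, -2.28 and -0.032 on arrays 1, 2 and 3, with array 2 far from the others. Mcm6 had 0.013, 0.79 and 2.21, with array 3 the largest. The means of these helicase genes thus stood on both sides of 0, but the genes were named as extremes of the list.

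Over whole arrays, 20601 to 21563 gene features had a value, and the SD of the log2 ratios ran from 0.56 on array 1 to 0.97 on array 3. Of 20 measured genes of kidney mesenchyme and ureteric bud, 10 were negative and 3 positive on all arrays, with a median of -0.21 and mean log2 ratios of -0.64 for Pax2, -0.31 for Wt1, -0.17 for Six2, 0.30 for Ret and 0.72 for Foxd1; a ratio does not give their level. Of 21 measured erythroid genes, 14 were positive on all arrays and none negative on all, with a median of 0.47. Among them, Hbb-bh1 had a mean of 4.07 ± 1.09 and Klf1 of 2.18 ± 0.22, and no erythroid gene passed the adjusted threshold of limma. The 17 endothelial genes had a median of -0.40, with 11 negative on all. Over all rows, 16.8% were positive and 18.5% negative on all arrays. The part of these cell types in the values of the mitosis genes was not tested. The leukocyte and stroma medians were 0.078 over 15 genes and -0.15 over 13.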

How the data were processed

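The authors deposited log2 ratios of both ages for each of 3 two-channel arrays; intensities were not used here, so dim or saturated spots could not be judged. Images were quantified with Imagene 5.5, and the labels give both a print-tip loess with a normalisation between arrays and a Lowess fit through 20% of the data, per the labels' protocols. The sources used here do not say which of them made the values, or whether background was corrected. The log base was found from the deposited values between -3 and 2, and values outside that range were left out of the check. With base 2, 100% of the ratios so checked were whole multiples of 0.001 (tolerance 0.02 of a step).

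Of 22702 features, 883 controls and blanks were left out. Complete values on 3 arrays were required (20386 features), and features of 1 symbol were averaged. For the resulting 19015 rows, limma 3.58.1 under R 4.3.3 compared the mean with 0 (lmFit, eBayes, two-sided, Benjamini-Hochberg), with 2 residual degrees of freedom. Array 3, whose orientation is not stated, was used as deposited. The fit was tested on simulated data. The 3 arrays limit the precision.

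The genes were listed by name, and they, the role groups and the lists were chosen with earlier results of these data known, and no set test was run. All measured genes of the group are named. Of the other mitosis and DNA replication genes, the 3 highest and 3 lowest means with 1 sign on all arrays are named, and of the tissue checks those given with values. Alternatives were median centring, quantile normalisation, array 3 turned, a dye term, values on 2 arrays, features kept apart and each array left out.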

Additional observations from a re-analysis of the deposited data

How the results depend on the processing

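Limma passed 0 rows and 0 mitosis genes under each of the 10 refits, with 736 to 2669 rows at an unadjusted p under 0.05. The median over the mitosis genes was -0.083 and became 0.030 with array 3 turned; it ran from -0.11 to -0.0050 with 1 array left out and was the same, -0.083, without Mki67 and Plk1. Genes at an unadjusted limma p under 0.05 numbered 3 negative and 2 positive; with 1 array left out they numbered 0 to 1 and 1 to 2, and the positive ones were 0 with array 3 turned and 1 after subtraction of a running median by library position. The 9 genes negative on all arrays became 5 with array 3 turned and 14 to 15 when only 2 arrays had to share the sign, and the 4 positive ones became 5 to 8. The running median and the run without Mki67 and Plk1 were added after the data were seen.

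Of the 36 genes, 13 kept their sign in every refit, among them Kif2c (0.29 to 0.78), Cdca8 (0.23 to 0.52), Kif11 (-0.63 to -0.21), Incenp (-0.52 to -0.17), Racgap1 (-0.54 to -0.11) and Ccna2 (-0.43 to -0.18), with the value nearest 0 from array 3 turned in each of these 6. With array 3 turned, 17 genes changed sign: Anln (0.038), Aurka (0.023), Birc5 (0.10), Bub1 (-0.29), Bub1b (0.050), Cdc20 (-0.078), Cenpa (0.038), Cenpe (0.058), Ect2 (-0.16), Kif23 (0.28), Ndc80 (-0.24), Nek2 (0.11), Nuf2 (0.077), Plk1 (-1.31), Pttg1 (0.16), Top2a (0.44) and Ube2c (0.095). The dye term turned Ncapd2 (-0.0095) and Tpx2 (0.15), and quantile normalisation turned Plk1 (-0.18). The running median turned Birc5 (0.12), Ccnb2 (0.082), Cdk1 (0.052), Mad2l1 (0.00053), Ncapd2 (-0.042) and Nek2 (0.054). Kept apart, 1 feature each of Anln (0.0022) and Plk1 (-0.33) had the other sign from the average. With 1 array left out, 14 genes changed sign at least once: Aurkb (-0.030 to 0.14), Birc5 (-0.18 to 0.056), Bub1 (-0.13 to 0.26), Cdk1 (-0.14 to 0.051), Cenpa (-0.16 to 0.024), Ect2 (-0.057 to 0.24), Kif23 (-0.56 to 0.11), Mad2l1 (-0.30 to 0.16), Ncapd2 (-0.057 to 0.12), Nek2 (-0.25 to 0.033), Plk1 (-0.94 to 0.79), Top2a (-0.85 to 0.19), Tpx2 (-0.59 to 0.24) and Ube2c (-0.22 to 0.024). The causes were not tested. The ages were paired within each array, so the test of the ratios against 0 is itself the paired one, and no further replicate block exists.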

Other observations

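Of the 39 features of the mitosis genes, 25 carry identifiers of the core library and 14 those of its extension (EXT). The core features had medians of -0.19, -0.16 and -0.17 on arrays 1, 2 and 3, against -0.083, -0.026 and -0.069 for all features of the core library. The extension features had medians of 0.033, 0.075 and -0.073, against 0.059, 0.12 and -0.10 for all extension features. After subtraction of the running median, the median over the mitosis genes was -0.068, against -0.083 without it. Kif2c and Cdca8 have library numbers of 19531 and 19343, far from Kif11, Incenp and Racgap1 at 4232, 4603 and 3996. With the running median subtracted, their means were 0.68, 0.39, -0.53, -0.37 and -0.46, in that order. The part of library position in these values was not tested.

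Genes with TTTGAA in the promoter window (24) had a median log2 ratio of -0.065 and ranged from -1.38 to 0.75, while the 7 with a window that lacks it had a median of -0.12 and ranged from -0.31 to 0.11. The 4 genes positive on all arrays all belong to the 24, as do 6 of the 9 negative on all arrays. The number without the motif is small, and the difference was not tested.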
